A study of Arabidopsis thaliana with 6 samples.

Results

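The 8 genes described here are known as rapid touch and wound response genes of Arabidopsis thaliana, and they were taken by their gene numbers: CAF1-9 (AT3G44260), CAF1-11 (AT5G22250), ZAT10 (AT1G27730), ZAT12 (AT5G59820), CML37 (AT5G42380), CML38 (AT1G76650), TCH2 (AT5G37770, listed as CML24) and TCH3 (AT2G41100, listed as CML12). All 8 were among the 19807 genes listed, and each was used once. They were picked by name with the difference between the genotypes and the spread of CAF1-9 already known. Their differences between genotypes are therefore given as a description, with no p. Poly-A selected RNA was sequenced from whole seedlings, 8 days old, grown in continuous light on plant nutrient medium. The seedlings were of prp8a-14, a mutant of the spliceosome protein PRP8A in the Col-0 ecotype (3 libraries, replicates 4 to 6), and of Col-0 wild type (3 libraries, replicates 1 to 3). Libraries of a genotype are biological replicates, per the series design. Neither the nature of the prp8a-14 lesion nor the number of seedlings pooled per library was given in the sources used here.

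Mechanical stimulation, wounding and cold let calcium into the cytosol of plant cells, and calmodulin and calmodulin-like proteins bind it through EF-hand domains. Within minutes the cells transcribe a set of early genes, among them transcription factors of the zinc finger, ERF and WRKY families, and their transcripts are short-lived. CAF1 proteins are deadenylases, which shorten poly-A tails and so start the decay of messenger RNA. TCH2 and TCH3 were named as touch-induced genes.

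Counts on the listed genes totalled 49126331 to 63069817 per library, and 3 counts, as many as an observed 0 allows, equalled 0.0484 to 0.0635 CPM (CPM are counts scaled by the authors' library sizes). PRP8A itself had 537, 500 and 466 CPM in prp8a-14 and 414, 389 and 433 CPM in wild type. It was higher in prp8a-14 by 0.28 log2 (SE 0.06, limma with BH, adjusted p = 0.0031). This does not check the labels, since the nature of the lesion was not given and a coding lesion need not change the level. Of all genes 3544 rose and 3433 fell. The shoot markers LHCB1.3, LHCB2.1, RBCS1A and CA1 summed to 25673 to 28346 CPM in prp8a-14 and 18266 to 19539 CPM in wild type. The 5 root markers summed to 131 to 136 CPM in prp8a-14 and 136 to 142 CPM in wild type, but they did not move together. In log2, CASP1 fell by 0.74, RHD6 fell by 0.66 and SCR rose by 0.25 (limma with BH, adjusted p = 1.8e-05, 0.0024 and 0.0010). The root markers SHR and PLT1 did not pass. The 4 seed markers summed to 4.23 to 9.23 CPM in prp8a-14 and 1.11 to 2.101 CPM in wild type. The floral marker SEP3 had 0.550 to 0.941 CPM in prp8a-14 and 1.17 to 1.55 CPM in wild type. None of these markers was at 0 in every library. In whole seedlings, fewer cells of a type and less RNA per cell cannot be told apart, and the part of tissue shares in the differences below was not tested.

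The promoters of 2 of the genes are shown because they hold the CGCG core that calmodulin-binding CAMTA factors recognise, and differ in the element tied to rapid stress responses, CGCGTT, which TCH2 has and ZAT12 lacks. Each line gives the 250 bases before the annotated gene start in the RefSeq annotation of TAIR10.1, on the strand of the gene and ending just before the start; capitals mark CGCG with any CGCGTT that contains it on either strand.
TCH2: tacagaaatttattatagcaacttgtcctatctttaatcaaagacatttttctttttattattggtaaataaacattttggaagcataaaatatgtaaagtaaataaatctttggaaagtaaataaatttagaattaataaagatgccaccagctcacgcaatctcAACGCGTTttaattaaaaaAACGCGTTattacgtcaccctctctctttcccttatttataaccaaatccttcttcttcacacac
ZAT12: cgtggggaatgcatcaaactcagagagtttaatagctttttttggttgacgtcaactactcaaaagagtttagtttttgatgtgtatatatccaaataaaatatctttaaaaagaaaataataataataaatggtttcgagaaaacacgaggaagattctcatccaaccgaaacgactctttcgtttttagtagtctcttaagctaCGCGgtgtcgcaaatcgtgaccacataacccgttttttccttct
TCH2 had CGCGTT 4 times, because AACGCGTT reads the same on both strands and stands there at 2 places, 84 to 77 and 65 to 58 bases before the start. CGCGTT was in 1 of the 8 promoters, against 2.59% of 27437 promoters of protein-coding genes, and CGCG in 2 of 8, TCH2 and ZAT12, against 10.1%; every CGCGTT holds a CGCG. The W-box core TTGAC, searched on both strands, was in 4 of 8, against 44.9%. The G-box CACGTG was in 0 of 8, against 6.49%. A match is a description of the letters and not a binding site.

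The deadenylase genes were higher in the mutant, CAF1-9 by about as much as ZAT10, the next largest difference of the 8. CAF1-9 stood at 55.7, 52.5 and 59.4 CPM in prp8a-14, against 12.7, 17.2 and 36.5 CPM in wild type. The mutant libraries lay close together, the wild type ones were spread over a 2.86-fold range, and the groups did not overlap. The means were 55.9 CPM ± 3.47 in prp8a-14 and 22.2 CPM ± 12.6 in wild type (SD, n = 3 each), a log2 change of 1.48 (SE 0.27), or 2.79-fold. CAF1-11, its close relative, stood at 8.72, 7.87 and 8.47 CPM in prp8a-14 and 4.42, 4.74 and 6.74 CPM in wild type. Again the groups did not overlap, and wild type replicate 3 was nearest to the mutant. Its log2 change was 0.68 (SE 0.15), or 1.60-fold.

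ZAT10 and ZAT12 encode C2H2 zinc finger transcription factors of stress responses, and ZAT10 is known as a repressor. ZAT10 had 21.0, 30.1 and 35.4 CPM in prp8a-14 and 6.31, 8.48 and 20.2 CPM in wild type. The groups came within 0.05 log2 of each other, between mutant replicate 4 and wild type replicate 3, without overlapping. The means were 28.9 CPM ± 7.32 in prp8a-14 and 11.7 CPM ± 7.47 in wild type (SD, n = 3 each), a log2 change of 1.46 (SE 0.33), or 2.74-fold. ZAT12 had 9.95, 10.1 and 11.4 CPM in prp8a-14 and 4.31, 5.73 and 11.0 CPM in wild type. Here wild type replicate 3 lay among the mutant libraries, so that the groups overlapped, and 7 of the 9 pairs of a mutant and a wild type library were higher in the mutant. The log2 change of ZAT12 was 0.70 (SE 0.25), and it was 1.08 without wild type replicate 3 and 0.41 without wild type replicate 1.

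The calmodulin-like genes CML37 and CML38 had groups that overlapped. CML37 is a calcium sensor known for a role in defence against herbivores, and CML38 a calcium sensor known from RNA granules formed under low oxygen. CML37 had 24, 127 and 246 counts in prp8a-14 and 34, 37 and 130 counts in wild type, or 0.434, 2.69 and 3.97 CPM in prp8a-14 and 0.643, 0.707 and 2.30 CPM in wild type. Mutant replicate 4 was the lowest of all 6 libraries and mutant replicate 6 the highest, a 9.14-fold range within 1 genotype. Its log2 change of 0.71 (SE 0.70) was 1.68 without mutant replicate 4 and 0.093 without mutant replicate 6. CML38 had 5.76, 5.86 and 4.21 CPM in prp8a-14 and 3.72, 3.13 and 5.40 CPM in wild type. Mutant replicate 6, the highest mutant library for 6 of the 8 genes, was the lowest here. The log2 change of CML38 was 0.39 (SE 0.20), and 0.61 without wild type replicate 3 and 0.22 without wild type replicate 2.

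TCH2 and TCH3 were the more abundant calmodulin-like genes among the 8, and their libraries did not overlap between the genotypes. TCH2 had 52.2, 48.2 and 54.4 CPM in prp8a-14 and 32.0, 32.8 and 41.1 CPM in wild type. Wild type replicate 3 was again nearest to the mutant, and the log2 change was 0.56 (SE 0.09), or 1.47-fold. TCH3 had 182, 202 and 206 CPM in prp8a-14 and 164, 158 and 174 CPM in wild type. The change of TCH3 was the smallest of the 8 in log2, 0.25 (SE 0.05), or 1.19-fold, and 0.15 when levels were set against library totals. Both genes overlap a gene on the other strand in the RefSeq annotation, TCH2 over 723 bases of AT5G37760 and TCH3 over 827 bases of AT2G41105 and 342 bases of AT2G09220. The use of strand in counting was not given in the sources used here, so reads of the partners cannot be told apart.

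All 8 genes had a higher mean log2 level in prp8a-14 than in wild type, with a median log2 change of 0.69, against 0.0037 over all genes. In the fit over all genes 6 of the 8 passed the threshold as higher, where 17.9% of all genes did and 35.2% passed in either direction. The groups did not overlap for 5 of the 8, all higher in the mutant, where 24.3% of all genes were higher without overlap and 48.1% differed without overlap in either direction. These counts come from the difference that was known when the genes were chosen, and nothing is read from them. The 2 that did not pass, CML37 and CML38, were also the 2 with a mean under 5 CPM. With library totals 4 of the 8 passed, without ZAT12 and TCH3, and in limma without trend also 4, without ZAT10 and ZAT12. ZAT12 did not pass with voom, with a pseudocount of 1 CPM or with any single library left out other than wild type replicate 3.

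**Figure D1:**
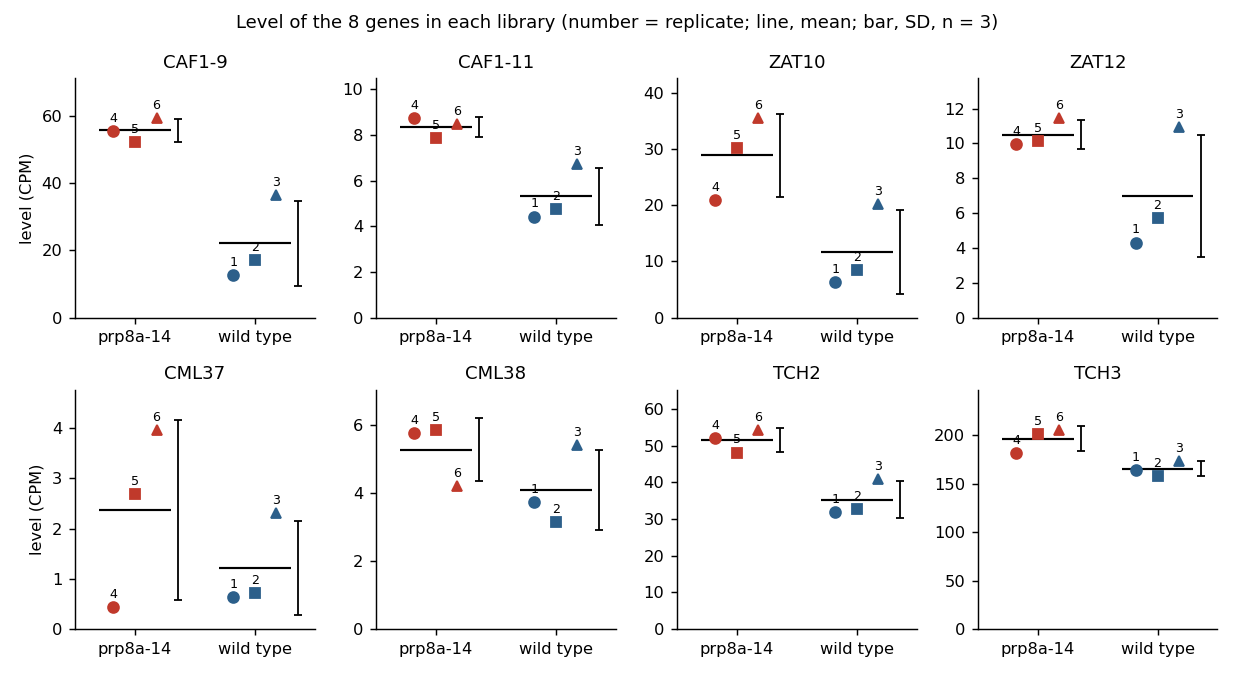
Level of each gene in CPM (vertical axis, from 0, a scale of its own in each panel) in the 3 prp8a-14 libraries (red) and the 3 wild type libraries (blue), with replicate numbers, means (lines) and SD (bars beside them). Wild type replicate 3 is the highest wild type library in all 8 panels, and in the ZAT12 panel it lies among the mutant libraries.

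Levels of different genes were set side by side per kilobase of the longest annotated transcript, as CPM per kilobase. In prp8a-14 the order was TCH3 (85.9 ± 5.57), CAF1-9 (41.7 ± 2.59), TCH2 (29.7 ± 1.82), ZAT10 (22.1 ± 5.62), ZAT12 (10.7 ± 0.828), CAF1-11 (6.32 ± 0.330), CML38 (5.48 ± 0.959) and CML37 (1.72 ± 1.303), as mean ± SD with n = 3. Only CAF1-11 and CML38 had overlapping ranges among the neighbours in that order. In wild type TCH3 came first as well (72.3 ± 3.41), then TCH2 (20.3 ± 2.89), CAF1-9 (16.5 ± 9.42), ZAT10 (8.95 ± 5.74), ZAT12 (7.13 ± 3.57), CML38 (4.24 ± 1.22), CAF1-11 (4.01 ± 0.951) and CML37 (0.885 ± 0.683), again n = 3. There the ranges of all neighbours from TCH2 to CAF1-11 overlapped, so that only the places of TCH3 and CML37 stood apart from their neighbours. CAF1-9 was above TCH2 in every mutant library and below it in wild type replicates 1 and 2.

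The spread between replicates was wide for most of these genes. That of CAF1-9 was known when the genes were chosen, so comparisons of spread with all genes, here and below, are a description. The SD of the log2 level within a genotype, pooled over both genotypes, had a median of 0.417 over the 8 genes, against 0.0884 over all genes. CML37 (1.39), ZAT10 (0.674), CAF1-9 (0.556), ZAT12 (0.493) and CML38 (0.340) lay above the 95th percentile of all genes, which was 0.317. CAF1-11 had 0.236, above 89.7% of all genes, TCH2 had 0.154, above 76.7%, and TCH3 had 0.0826, above 46.1%. Counting error alone gives an SD of 0.056 log2 for CAF1-9 and 0.29 for CML37 in the library with the fewest counts.

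**Figure D2:**
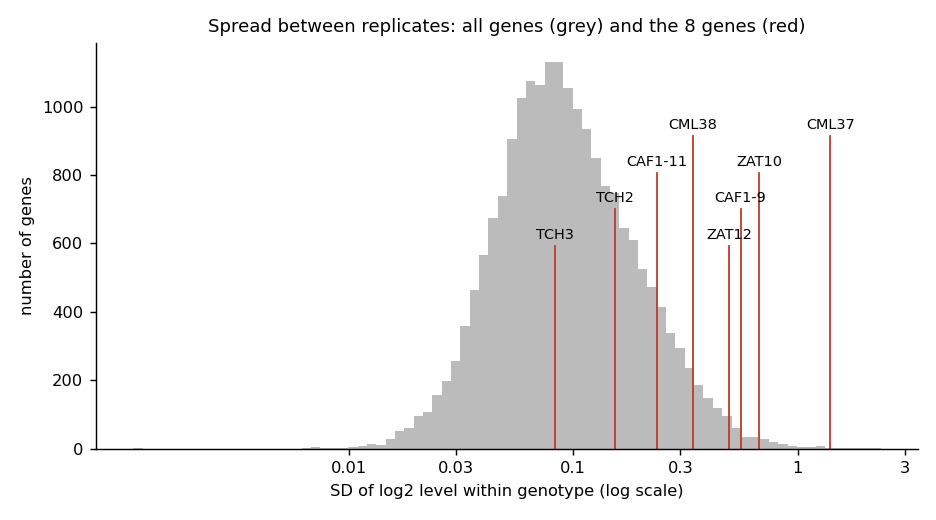
Histogram of the SD of the log2 level within genotype (horizontal axis, log scale) over the 19807 genes, with the number of genes per bin on the vertical axis and the 8 genes as red lines. TCH3 lies near the middle of the distribution at 0.0826 and CML37, ZAT10, CAF1-9, ZAT12 and CML38 in its upper tail, from 0.340 to 1.39.

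The spread lay mainly in wild type. The SD of the log2 level was larger in wild type than in prp8a-14 for 6 of the 8 genes, as it was for 44.9% of all genes, and the exceptions were CML37 and TCH3. For CAF1-9 it was 0.0895 in prp8a-14, where 53.4% of all genes had a lower SD, and 0.781 in wild type, where 99.7% had a lower one. For ZAT12 it was 0.109 in prp8a-14 and 0.689 in wild type. For ZAT10 it was 0.387 in prp8a-14 and 0.872 in wild type. With 3 libraries per genotype, these SDs are imprecise, and the difference between the genotypes in spread was not tested.

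The genes deviated together in 1 wild type library. Wild type replicate 3 was the highest wild type library for 8 of 8, as it was for 30.9% of all genes, and its median deviation from the wild type mean was 0.599 log2 over the 8 genes and -0.0034 over all genes. Wild type replicate 1 was the lowest for 6 of 8 (31.9% of all genes), with CML38 and TCH3 lowest in replicate 2. In the mutant, replicate 6 was the highest for 6 of 8 (32.2% of all genes), but its median deviation was only 0.085. Genes of 1 library share its seedlings, RNA and depth, so these counts are a description of 6 libraries and not of independent events.

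**Figure D3:**
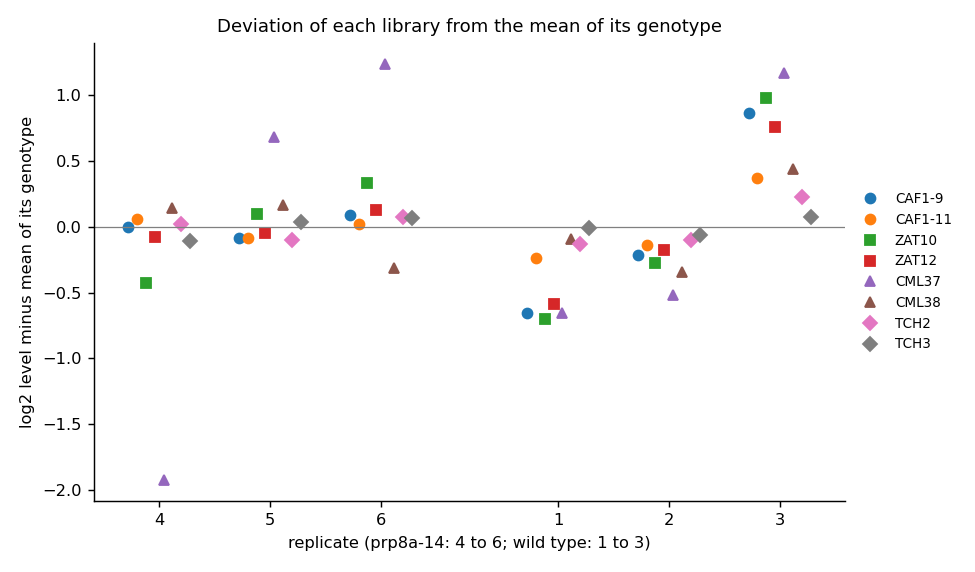
Log2 level of each gene minus the mean of its genotype (vertical axis) in each library (horizontal axis, prp8a-14 replicates left and wild type replicates right), 1 symbol per gene. All 8 genes are above 0 in wild type replicate 3, from 0.072 for TCH3 to 1.17 for CML37, while in mutant replicate 4 CML37 lies at -1.92 and ZAT10 at -0.43.

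Because wild type replicate 3 was the highest wild type library for all 8 genes, the differences had to be larger without it. It was picked on these same values, so the changes and SEs without it are a description only. The log2 change of CAF1-9 was then 1.91 (SE 0.11), that of ZAT10 1.94 (SE 0.19), that of CAF1-11 0.87 (SE 0.11), that of TCH2 0.67 (SE 0.06) and that of TCH3 0.28 (SE 0.06). In folds, CAF1-9 was 3.76-fold, ZAT10 3.85-fold and CML37 2.46-fold higher in prp8a-14 than in the other wild type libraries. The median SD within genotype over the 8 genes was 0.191 without that library. Leaving out any other single library left it between 0.389 and 0.473.

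**Figure D4:**
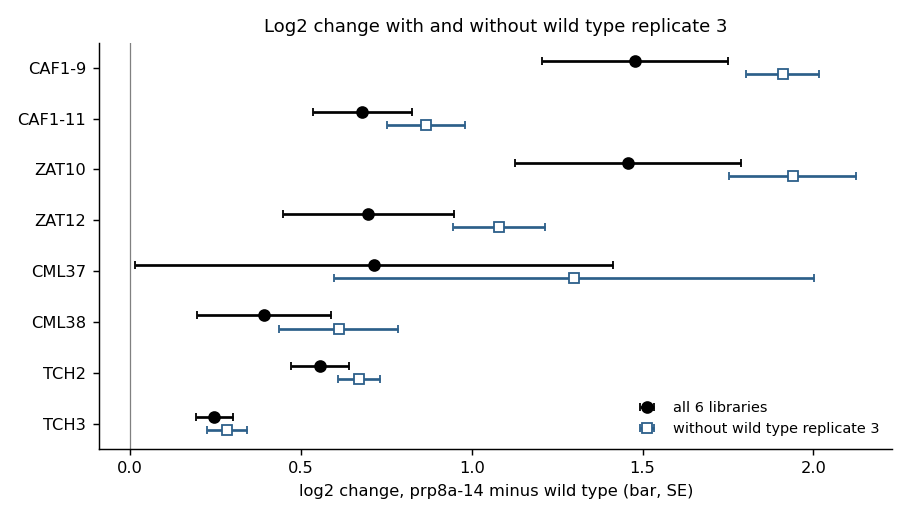
Log2 change, prp8a-14 minus wild type, with its SE (horizontal axis) for each gene from all 6 libraries (black) and without wild type replicate 3 (blue squares). That library is the highest wild type one for every gene, so every change is larger without it, for example 1.91 against 1.48 for CAF1-9.

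Most of the genes have few exons, where the median over the listed genes with a RefSeq model was 4. Of the 8, 6 have 1 exon in their longest RefSeq transcript, against 15.7% of 19685 listed genes, while TCH2 has 2 and TCH3 has 5. The 3084 listed genes with 1 exon had a median log2 change of -0.0028 and a median SD within genotype of 0.130. Thus the 6 genes without an intron in that model include those with the largest differences, CAF1-9 and ZAT10, and all 5 of those with the widest spread.

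The list of other early stress transcription factors was chosen on textbook knowledge of touch and wound responses, with earlier results of these data known. The gene lists below were also chosen with those results known. The transcription factor genes that passed were higher in prp8a-14. Of 26 listed 22 were measured, of which 13 rose and 0 fell (limma with BH, adjusted p under 0.05; 16 and 0 at an unadjusted p under 0.05, and 10 and 0 with voom), with a median log2 change of 0.55. Of all genes 17.9% rose and 17.3% fell, 22.7% and 21.9% were higher and lower at an unadjusted p under 0.05, and 10.6% rose and 29.3% fell with voom. The 9 that did not pass include 4 of the 5 WRKY genes. CBF2, an activator of cold-regulated genes, had 3.31, 1.67 and 2.16 CPM in prp8a-14 and 0.227, 0.535 and 1.10 CPM in wild type, a change of 2.14 in log2 (SE 0.47, limma with BH, adjusted p = 0.0042), and 1.07 on the log2(CPM + 1) scale. The ethylene response factor gene ERF105 had 17.0, 21.3 and 20.4 CPM in prp8a-14 and 5.09, 7.35 and 16.8 CPM in wild type. Wild type replicate 3 lay just below mutant replicate 4 here, as it did for ZAT10, and the log2 change of 1.19 (SE 0.31, limma with BH, adjusted p = 0.012) had an adjusted p = 0.078 in limma without trend. ERF6 rose by 1.01 (SE 0.22). Of 9 genes named ERF 8 rose, with ERF5 (0.63, limma with BH, adjusted p = 0.069) the exception, and of 5 WRKY genes 1, WRKY33, passed (limma with BH, adjusted p = 0.0496). WRKY33 had 57.5, 114 and 153 CPM in prp8a-14 and 56.5, 55.2 and 71.8 CPM in wild type. Mutant replicate 4 was the lowest mutant library for 15 of the 22 genes, against 33.5% of all genes, and 19 of the 22 rose without it. That library was picked on these same values, so the higher count without it is a description only. Over all genes, 2806 to 3292 rose with a single library left out. Wild type replicate 3 was the highest wild type library for 19 of the 22, against 30.9% of all genes.

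Of 10 listed zinc finger genes related to ZAT10 and ZAT12, 8 were measured, of which 2 rose and 1 fell, close to the 17.9% and 17.3% of all genes. Their median log2 change was 0.09, and -0.0048 with library totals. ZAT6 rose by 0.69 (limma with BH, adjusted p = 0.032), AZF2 rose by 0.39 (limma with BH, adjusted p = 0.017) and AZF1 fell by 0.39 (limma with BH, adjusted p = 0.046). The groups overlapped for ZAT6 and for AZF1. No gene of this list passed as higher without mutant replicate 5 or 6 or wild type replicate 1, in limma without trend, or with library totals; 1 did without wild type replicate 2. AZF1 did not pass without mutant replicate 4 or 5 or wild type replicate 2 or 3.

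Of 21 other early touch and wound genes listed, 20 were measured, of which 8 rose and 3 fell, where 17.9% of all genes rose and 17.3% fell. Their median log2 change was 0.30. At an unadjusted p under 0.05, 11 were higher and 3 lower, against 22.7% and 21.9% of all genes. With voom 4 rose and 4 fell, against 10.6% and 29.3% of all genes. TCH4, a touch-induced xyloglucan endotransglucosylase of the cell wall, had 47.2, 57.4 and 52.9 CPM in prp8a-14 and 23.3, 20.4 and 27.7 CPM in wild type. Its groups did not overlap, and it rose by 1.15 (SE 0.10, limma with BH, adjusted p = 7.3e-06). The SD of its log2 level within genotype was 0.187, above 83.4% of all genes. The lipoxygenase gene LOX4, whose groups overlapped, and the jasmonate repressor gene JAZ7 rose by 0.74 and 0.69 (limma with BH, adjusted p = 0.022 and 0.036). CYP94C1, of jasmonate catabolism, fell by 0.94, OPR3, of jasmonate synthesis, by 0.39, and SIB1, a sigma factor binding protein, by 0.42 (limma with BH, adjusted p = 0.018, 0.00051 and 0.042). The count of 8 that rose was 5 without mutant replicate 5 and 4 without wild type replicate 2, and 5 with library totals. LOX4 did not pass without mutant replicate 6 or wild type replicate 2 or 3, JAZ7 without mutant replicate 4 or 5 or wild type replicate 2 or 3, CYP94C1 without mutant replicate 6 or wild type replicate 1, and SIB1 without mutant replicate 4 or 5 or wild type replicate 2 or 3. The change of LOX4 was 0.46 without mutant replicate 6, that of CYP94C1 was -0.57 without wild type replicate 1 and that of SIB1 was -0.27 without wild type replicate 3, and JAZ7 changed by 0.42 on the log2(CPM + 1) scale.

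Among other calcium sensor genes, those that passed were lower in the mutant. Of 21 calmodulin and calmodulin-like genes, all measured, 0 rose and 11 fell (limma with BH; 1 and 12 at an unadjusted p under 0.05, 0 and 13 with voom), with a median log2 change of -0.14, where 17.9% of all genes rose and 17.3% fell. Of the 14 calmodulin-like genes 6 fell, with a median of -0.064, and 7 of the 21 had a positive change, none of which passed. CML47, CML43 and CML8 fell by 0.96, 0.96 and 0.89 (limma with BH, adjusted p = 0.0075, 0.0066 and 0.0019), CML43 by 0.55 on the log2(CPM + 1) scale. CML8 had 1.90, 1.91 and 2.57 CPM in prp8a-14 and 3.74, 4.51 and 3.50 CPM in wild type, and the groups did not overlap. Among the 7 calmodulin genes 5 fell, by at most 0.29 log2; they are alike in sequence, so that their single values are uncertain. The count of 11 was 7 without mutant replicate 5 and 7 in limma without trend.

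Genes for CAF1 relatives and other CCR4-NOT proteins, the complex in which CAF1 works, were listed as well. Of 12 listed 8 were measured, of which 1 rose and 0 fell (limma with BH; 2 and 0 at an unadjusted p under 0.05, 0 and 1 with voom), against 17.9% and 17.3% of all genes, with a median log2 change of 0.015 and -0.080 with library totals. The 1 that rose, CAF1-1, had a change of 0.41 (limma with BH, adjusted p = 0.038) and did not pass without mutant replicate 4 or 6 or wild type replicate 1 or 2. Of 15 upstream regulators and channels, all measured, 5 rose and 0 fell (limma with BH; 6 and 1 at an unadjusted p under 0.05, 3 and 1 with voom), against 17.9% and 17.3% of all genes and 10.6% and 29.3% with voom, with a median log2 change of 0.11 and 0.017 with library totals. They included RBOHD, an NADPH oxidase that makes extracellular reactive oxygen (0.30, limma with BH, adjusted p = 0.0065), and the glutamate receptor-like channel genes GLR3.3 and GLR3.6, known for wound signals between leaves (0.29 and 0.25, limma with BH, adjusted p = 0.0035 and 0.046). RBOHD had an adjusted p = 0.052 in limma without trend. GLR3.6 did not pass without mutant replicate 4 or 6 or wild type replicate 2 or 3, and its change was 0.17 without the last and 0.16 with library totals. The count of 5 was 3 without wild type replicate 3.

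**Figure D5:**
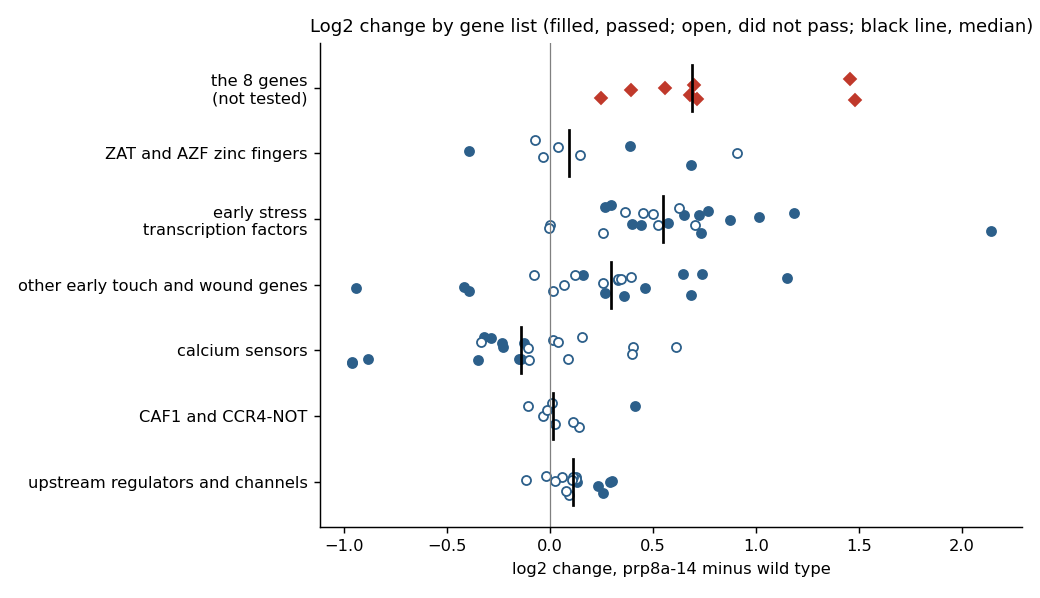
Log2 change, prp8a-14 minus wild type (horizontal axis), of the 8 genes (red diamonds) and of the measured genes of 6 lists (circles, filled where adjusted p was under 0.05), with list medians as black lines. The early stress transcription factors have a median of 0.55 and the calcium sensors one of -0.14.

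Wild type replicate 3 was also the highest wild type library for 51 of the 71 measured genes (71.8%) in the 4 lists of calcium sensors, zinc fingers, transcription factors and other touch and wound genes, against 30.9% of all genes. Mutant replicate 6 was the highest mutant library for 45 of them (63.4%), and both held for 34 (47.9%), against 11.9% of all genes. To name the genes most like the 8, the library pattern was taken as the average, over the 6 genes with a mean of at least 5 CPM, of the log2 levels minus the mean of the genotype, and it was compared over the 6 libraries with the 36 other genes that had a mean of at least 5 CPM and an SD within genotype of at least 0.5. Of the 6, CAF1-9 and ZAT10 reach that SD themselves. The median Pearson's r over these 36 was 0.25, and 1 gene, ERF105, reached 0.98. PUMP4, a mitochondrial dicarboxylate carrier (r = 0.85), and ERF5 (r = 0.76) followed among nuclear genes. PUMP4 had 35.6, 68.9 and 93.5 CPM in prp8a-14 and 15.2, 15.6 and 41.1 CPM in wild type. AT5G27010 (r = 0.74), AT4G29780 (r = 0.69) and BBX32 (r = 0.66) were the other nuclear genes among the 10 with the highest r; the r of AT5G27010 rests on wild type counts of 0, 3 and 4. With 6 libraries and genotype means removed, such an r is a description of these libraries.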

How the data were processed

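Poly-A selected RNA of 3 prp8a-14 and 3 wild type libraries was sequenced as read pairs of 150 bases, per the labels' protocols. Tools named in the submitters' processing notes, without their roles, are STAR 2.5.1a, featureCounts 1.4.6-p5 of Subread, edgeR, limma, Salmon 0.8.2 and bcl2fastq. Build and annotation were not given in the sources used here. The deposited table gives log2 CPM, with 0.5 added to each count and library sizes scaled by the authors, as worked out from its values; whole counts came back for 100% of values in each library (tolerance 0.1). The table's 20079 lines held 19807 genes; 272 repeats had equal values. The table's other 3 per-sample columns could be tied to no sample and stayed unused.

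All genes were compared with limma 3.58.1 (R 4.3.3, intensity trend, two-sided) on the deposited log2 values, with Benjamini-Hochberg adjustment (BH) at 0.05; the fit was tested on simulated counts. Replicates of a genotype differed beyond sampling noise (chi-square per degree of freedom 8.00 to 15.8). The members and lists were chosen with earlier results of these data known. Named genes were the 8 members, up to 3 called genes per direction and list by size, and the 10 with the most similar library pattern; ERF5 and WRKY33 in the list of transcription factors were named after their values were seen. Gene models, promoters and some symbols came from the RefSeq annotation of TAIR10.1, matched by gene number; numbers of transcripts equalled those in the deposited table for 19679 of 19685 genes. Coordinates are left out because no source names the build of the counts. Python 3.11.15, numpy 2.4.6, pandas 2.3.3 and matplotlib 3.10.9 were used. Alternatives were library totals, a mean of at least 5 CPM, a pseudocount of 1 CPM, limma without trend, each library left out, and voom on the recovered counts, the last chosen after seeing the data.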

Additional observations from a re-analysis of the deposited data

How the results depend on the processing

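With each library left out in turn, all 8 genes kept a positive log2 change; their median was 0.447 to 0.971 (0.689 with all libraries), 5 to 7 of them passed, and their median SD within genotype was 0.191 to 0.473. With library totals or voom the median over all genes was -0.091, 2110 or 2090 genes rose and 5854 or 5796 fell, and 5405 to 6416 genes in all passed with a library left out. Library totals gave 0 CAF1 and CCR4-NOT genes that rose and 1 that fell (0 and 1 with voom, 0 that rose at a mean of at least 5 CPM, 0 to 1 each way with a library left out), 0 zinc finger genes that rose (0 with voom; in limma without trend 0 rose and 0 fell; with a library left out 0 to 3 rose and 0 to 1 fell), 5 other touch and wound genes that rose (4 with voom, 4 to 10 with a library left out) and 3 upstream genes that rose and 1 that fell (3 and 1 with voom, 3 to 5 and 0 to 1 with a library left out). Limma without trend gave 8 transcription factors that rose, 7 calcium sensors that fell, 5 touch and wound genes that rose and 1 that fell, and 2 upstream genes that rose. With a library left out 0 to 1 calcium sensors rose, 7 to 10 fell and 9 to 19 transcription factors rose. The cause was not tested. No paired analysis was possible because the genotypes share no replicate number. Of the 8 genes, CML37 with 24 to 246 counts has the widest counting error.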

Other observations

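The library pattern, the average over 6 of the 8 genes, was compared with 36 other genes. Among the 10 of these with the highest r were 4 plastid-encoded photosynthesis genes, PSBA (r = 0.77), PSAA (r = 0.70), PSAB (r = 0.68) and RBCL (r = 0.65). PSBA, of a photosystem II core protein, had 59.2, 59.3 and 44.6 CPM in prp8a-14 and 30.6, 24.4 and 65.8 CPM in wild type, and wild type replicate 3 was the highest of all 6 libraries. RBCL, of the large subunit of Rubisco, had 122, 82.9 and 66.9 CPM in prp8a-14 and 52.2, 41.3 and 109 CPM in wild type. In prp8a-14 all 4 were lowest in replicate 6, where the library pattern was highest. In wild type all 4 were lowest in replicate 2, while the library pattern was lowest in replicate 1. None of the 4 passed the threshold between genotypes (limma with BH, adjusted p = 0.14, 0.31, 0.31 and 0.21). Wild type replicate 3 stood above the other wild type libraries for these plastid transcripts in poly-A selected RNA. They were picked for a high r with the library pattern, whose largest deviation was in that library (0.546 log2). Their high level there was therefore largely set by the pick. Whether the patterns are related was not tested.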
